A study of Mus musculus with 2 samples.

Results

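Expression of 7 genes that are used to recognise regulatory and follicular helper T cells was compared between 2 lymphomas of L-DKO mice. The 7 were taken by symbol from 8249 measured genes, with Il2ra, Nrp1 and Ikzf2 as the regulatory genes and Pdcd1, Tox2, Cd200 and Pou2af1 as the follicular helper genes, and all 7 were measured in both tumours. They were chosen with their values known, so the differences given for them are a description and carry no test. One tumour, called the gut tumour here, grew in a Peyer's patch, a lymphoid organ in the wall of the intestine, in a mouse aged 26 weeks. The other, the thymic tumour, grew in the thymus of a mouse aged 30 weeks. Both were negative for the CD1d tetramer, the stain for invariant natural killer T cells, both came from L-DKO mice with no treatment listed, and there was 1 library of each. The labels do not spell out L-DKO. In published work that strain name stands for mice that lose Id2 and Id3, the inhibitors of E protein transcription factors, in T lineage cells through a Cre driven by the Lck promoter, and both tumours share it. The design text speaks of sorted lymphoma cells and the extraction protocol of lysed tumour tissue, so the purity of the tumour cells is not settled. With 1 library per site, site, mouse and age cannot be told apart, and no value has a replicate error.

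Regulatory T cells restrain immune responses. They take up interleukin 2 through a receptor whose alpha chain, CD25, is the product of Il2ra, and many of those that form in the thymus carry the surface protein neuropilin 1 (Nrp1) and the transcription factor Helios (Ikzf2). Follicular helper T cells sit in B cell follicles, Peyer's patches included, and help B cells make antibody. They carry PD-1 (Pdcd1), an inhibitory receptor, and CD200, a surface protein that quiets myeloid cells through its receptor, and they express Tox2, a DNA-binding protein of the HMG-box family, and Pou2af1, a coactivator that B cells need for germinal centres. None of the 7 belongs to one cell type alone. Early thymocytes and activated T cells also make Il2ra, B cells make Pou2af1 and Cd200, endothelial and dendritic cells can make Nrp1, and exhausted or activated T cells make Pdcd1. Foxp3, which defines regulatory T cells, and Cxcr5, which places follicular helper cells in the follicle, were looked for but were not among the genes tested. The names thus stand for groups of genes and not for cells shown to be present.

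The stretches of 250 bases before the start of 5 of these genes are shown, since 3 of them were lower and 2 higher in the gut tumour. They are RefSeq sequences of the mouse build GRCm38.p6, another build than that of the expression values, written 5′ to 3′ on the strand of the gene and ending at the base before its start. For Tox2, which has several listed starts, the one farthest upstream is shown. Capitals mark each CANNTG, the E-box letters that E proteins and many other basic helix-loop-helix factors can bind.
Il2ra, chr2:11642542-11642791 (+ strand): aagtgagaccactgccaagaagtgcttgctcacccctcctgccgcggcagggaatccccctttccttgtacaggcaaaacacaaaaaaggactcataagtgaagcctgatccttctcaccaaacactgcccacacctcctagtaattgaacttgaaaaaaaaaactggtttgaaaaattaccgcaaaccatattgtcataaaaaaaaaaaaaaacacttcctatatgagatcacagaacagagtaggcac
Cd200, chr16:45409054-45409303 (- strand): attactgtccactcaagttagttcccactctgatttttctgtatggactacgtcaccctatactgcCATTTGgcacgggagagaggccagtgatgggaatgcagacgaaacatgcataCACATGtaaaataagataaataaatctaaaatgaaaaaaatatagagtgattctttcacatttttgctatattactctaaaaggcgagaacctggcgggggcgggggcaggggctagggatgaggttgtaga
Pou2af1, chr9:51213440-51213689 (+ strand): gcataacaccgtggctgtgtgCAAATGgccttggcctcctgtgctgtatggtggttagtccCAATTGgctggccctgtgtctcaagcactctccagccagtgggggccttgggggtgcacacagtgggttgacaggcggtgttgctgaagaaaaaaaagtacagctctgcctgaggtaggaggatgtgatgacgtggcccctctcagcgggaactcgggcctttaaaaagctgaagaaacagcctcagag
Pdcd1, chr1:94052554-94052803 (- strand): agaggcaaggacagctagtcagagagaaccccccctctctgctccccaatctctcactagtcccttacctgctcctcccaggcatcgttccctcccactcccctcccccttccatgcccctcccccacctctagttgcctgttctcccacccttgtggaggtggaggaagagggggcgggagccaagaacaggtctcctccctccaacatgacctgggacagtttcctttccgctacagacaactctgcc
Tox2, chr2:163202877-163203126 (+ strand): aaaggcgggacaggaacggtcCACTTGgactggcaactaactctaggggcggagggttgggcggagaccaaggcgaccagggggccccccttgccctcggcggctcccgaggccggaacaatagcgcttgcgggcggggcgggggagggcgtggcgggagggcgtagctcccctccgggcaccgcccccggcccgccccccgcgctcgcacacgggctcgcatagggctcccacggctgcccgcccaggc
Within 250 bases, Cd200 and Pou2af1 each held 2 E-boxes, Tox2 held 1 in the stretch shown, and Il2ra and Pdcd1 held 0. Nrp1, whose promoter is not printed, also held 0. The E-box letters are common, and 66.2% of all 32851 promoter stretches of this length held at least 1. The letters CAGCTG, searched alone and contained in CANNTG, were in 0 of the 10 stretches listed for 6 of the 7 genes (5 of the 10 belong to Tox2 and partly overlap), against 13.0% of all stretches. The letters CACCTG, searched on both strands, were in 1 of the 10, a further Tox2 start, against 17.2%. The octamer ATGCAAAT, which the partners of the Pou2af1 product bind, and the STAT letters TTCNNNGAA were in 0 of the 10, against 1.60% and 7.02% of all stretches, with both strands searched. The composition of the stretches differed, with 42.4% G and C in Il2ra and Cd200, 75.2% in Tox2 and a median of 52.4% over all stretches. A match is a string of letters and not a shown binding site.

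Of the 7 genes, 2 were at least 4-fold higher and 4 at least 4-fold lower in the gut tumour, and 1 lay between. Levels are given in FPKM, a count of fragments divided by transcript length and library size. Differences are on the log2(FPKM + 1) scale, gut tumour minus thymic tumour, and a difference of at least 2 is called 4-fold. Over all 8245 genes tested, 7.84% were 4-fold higher and 12.0% 4-fold lower in the gut tumour, 19.9% in either direction, with a median difference of 0.05. The members were picked on this same contrast, so nothing is read from their 6 of 7. The regulatory genes lay below 0 as deposited, 2 of 3 past 4-fold, with Ikzf2 above 0 after setting the libraries to the same total or with the authors' standard scores. The follicular helper genes split, 2 higher and 2 lower, so that their median difference of -0.25 describes none of the 4. In bulk tumour RNA, fewer cells of a type and less RNA per cell cannot be told apart.

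**Figure D1:**
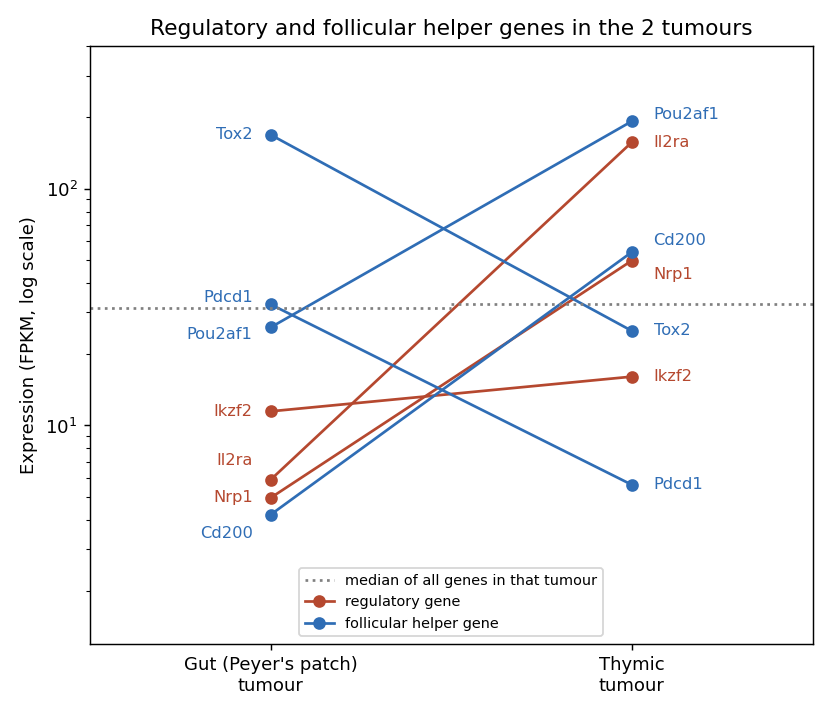
FPKM on a log axis of the 7 genes in the gut tumour (left) and the thymic tumour (right), 1 library each, with no error bars because there are no replicates. Lines join the values of 1 gene, and Tox2 and Pdcd1 slope down to the thymic tumour while Il2ra, Nrp1, Cd200 and Pou2af1 slope up and Ikzf2 is nearly flat.

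Il2ra stood at 5.91 FPKM in the gut tumour and 157 FPKM in the thymic tumour. This was the widest gap of the 7, at a difference of -4.52, and the FPKM of the thymic tumour was 26.6 times that of the gut tumour. Only 85 of the 8245 genes tested, Il2ra included, had a difference as low or lower. In the gut tumour 13.2% of genes had a lower FPKM than Il2ra, and in the thymic tumour 87.2%, so it was among the low genes of the first and the high genes of the second.

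The other chains of the interleukin 2 receptor did not share this pattern. Il2rb, the beta chain that signals for interleukins 2 and 15, was at 15.9 FPKM in the gut tumour and 2.34 FPKM in the thymic tumour, a difference of 2.34 in the opposite direction to Il2ra. Il2rg, the gamma chain shared by several cytokine receptors, was at 143 FPKM in the gut tumour and 68.2 FPKM in the thymic tumour, a difference of 1.05. The alpha chain was thus the lowest of the 3 in the gut tumour and the highest in the thymic tumour. Its FPKM was 0.372 times that of the beta chain in the gut tumour and 67.2 times in the thymic tumour. The thymic value of Il2rb was low, with 2.30% of genes lower there, so the ratio of 67.2 rests on a small denominator.

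Of 24 listed genes of interleukin 2 receptor signalling, 17 were measured, 2 were 4-fold higher and 2 were 4-fold lower in the gut tumour, or 11.8% each, with a median difference of 0.10. Higher were Il2rb and the growth kinase Mtor, at 109 FPKM in the gut tumour and 4.50 FPKM in the thymic tumour. Lower were Jak3, the kinase bound to the gamma chain, at 10.4 and 47.9 FPKM in the gut and thymic tumours, and the adaptor Grb2 at 20.8 and 86.5 FPKM. Grb2 sat at the threshold, with a difference of -2.00. The transcription factors Stat5a (0.90) and Stat5b (0.39), which carry the signal to the nucleus, were not 4-fold apart. Pim1 (-1.19) and Bcl2 (0.83), which this pathway can induce, were not 4-fold apart either.

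Nrp1 stood at 4.95 FPKM in the gut tumour and 49.7 FPKM in the thymic tumour. The difference was -3.09, and 381 of the genes tested had one as low or lower. Nrp1 acts with plexins as a receptor for class 3 semaphorins and with the receptors of vascular endothelial growth factor. Of 22 listed partners 6 were measured and 1 was 4-fold apart, the plexin Plxna3, at 142 FPKM in the gut tumour and 0.955 FPKM in the thymic tumour, in the opposite direction to Nrp1. The difference of Plxna3, 6.19, was the highest of all genes tested. Its thymic value was near the floor, with 0.242% of genes lower there. Plxna2 was at 13.0 FPKM in the gut tumour and 50.6 FPKM in the thymic tumour (-1.88), and Plxnd1 at 2.38 and 3.36 FPKM. The measured plexins thus did not share one direction. The endothelial markers Kdr and Flt1, which are also Nrp1 partners, were listed but were not among the genes tested. Pecam1, the 1 measured marker of 9 listed for endothelium, was at 157 and 80.3 FPKM in the gut and thymic tumours (0.96), not 4-fold apart. The part of endothelial cells in the value of Nrp1 was not tested.

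Ikzf2 was the one regulatory gene not 4-fold apart, at 11.5 FPKM in the gut tumour and 16.1 FPKM in the thymic tumour. Its difference of -0.45 lies well inside the range of most genes, and its sign depended on scaling. It was 0.05 with the libraries set to the same total and 0.23 with the authors' standard scores. In both tumours Ikzf2 was the lowest of the 4 measured Ikaros family genes. Ikzf1, which encodes Ikaros, was at 175 FPKM in the gut tumour and 97.6 FPKM in the thymic tumour, and Ikzf3, which encodes Aiolos, at 47.7 and 62.1 FPKM. Ikzf5 was at 15.7 and 30.5 FPKM. Of 19 listed genes of this family and of the NuRD and related corepressor complexes that Ikaros proteins recruit, 18 were measured and 1 was 4-fold apart, the corepressor scaffold Sin3a, at 252 and 42.9 FPKM in the gut and thymic tumours. The median difference of the 18 was 0.20.

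One more regulatory gene, Capg, which encodes an actin-capping protein, was measured of the other 17 listed. It was at 40.1 FPKM in the gut tumour and 61.1 FPKM in the thymic tumour, a difference of -0.60. With it, 4 of 20 listed regulatory genes were measured, 2 of them lower by 4-fold, both among the 7 genes described here.

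**Figure D2:**
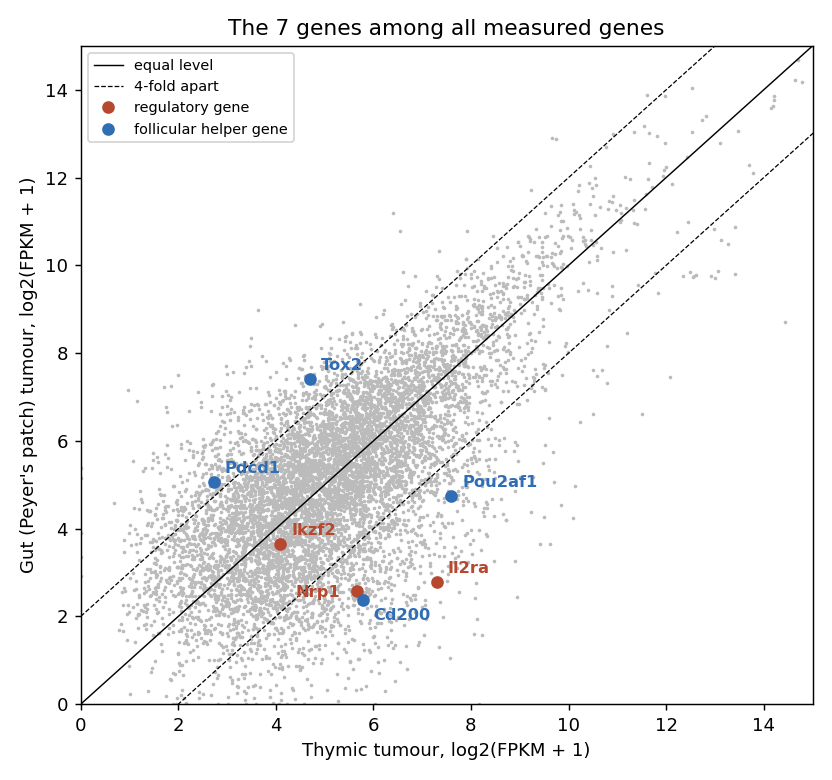
Each grey point is 1 gene, with log2(FPKM + 1) in the thymic tumour across and in the gut tumour up, and the 7 genes are coloured. The axes end at 15, and 16 genes beyond that are not drawn. Il2ra, Nrp1, Cd200 and Pou2af1 lie below the lower dashed line of 4-fold, Tox2 and Pdcd1 above the upper one, and Ikzf2 near equality.

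Pdcd1 and Tox2 were the 2 of the 7 that were higher in the gut tumour. Pdcd1 stood at 32.4 FPKM in the gut tumour and 5.62 FPKM in the thymic tumour, a difference of 2.34. It was near the median gene of the gut tumour (31.2 FPKM), and in the thymic tumour it was the lowest of the 7, with only 8.95% of genes lower. Most of the T cell marker list ran the same way, with 12 genes above 0 and 3 below. Its 15 genes, all measured, had a median difference of 1.01, with 3 genes 4-fold higher and 0 genes 4-fold lower, and a summed level of 4740 FPKM in the gut tumour and 2842 FPKM in the thymic tumour. With the libraries rescaled so that the median T cell marker was equal, an alternative chosen after seeing the data, Pdcd1 differed by 1.41 and Tox2 by 1.71, neither past 4-fold. Pdcd1 was also inside 4-fold, at 1.82, with 5 in place of 1 added to each FPKM.

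The ligand of PD-1 that was measured, Cd274, which encodes PD-L1, ran the other way, at 118 FPKM in the gut tumour and 222 FPKM in the thymic tumour (-0.91). Its FPKM was 3.64 times that of Pdcd1 in the gut tumour and 39.6 times in the thymic tumour. Of 18 listed genes of the PD-1 pathway and other checkpoints, 8 were measured and 0 were 4-fold apart, with a median difference of 0.32. The phosphatases that PD-1 can recruit, Ptpn11 (SHP-2, -1.04) and Ptpn6 (SHP-1, 0.55), differed in sign. The inhibitory receptors Tigit, at 121 and 46.2 FPKM in the gut and thymic tumours, and Btla, at 70.6 and 29.6 FPKM, were higher in the gut tumour by less than 4-fold. Both stood above Pdcd1 in each tumour.

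Tox2 stood at 169 FPKM in the gut tumour and 25.1 FPKM in the thymic tumour, a difference of 2.70. It was the highest of the 7 in the gut tumour, above 87.4% of genes, and the fifth of 7 in the thymic tumour, above 42.5%. Tox, the family member best known from CD4 T cell development and T cell exhaustion, ran the other way, at 4.40 FPKM in the gut tumour and 34.5 FPKM in the thymic tumour (-2.72). Tox4 was at 25.8 and 32.6 FPKM in the gut and thymic tumours (-0.32). Tox2 had 38.4 times the FPKM of Tox in the gut tumour and 0.726 times in the thymic tumour. Of 11 listed TOX, NFAT and NR4A factors, some of which antigen receptor signals engage, 8 were measured. Of the 8, 3 were 4-fold lower in the gut tumour, or 37.5% against 12.0% of all genes. Those were Tox, the NFAT family member Nfat5 (12.7 and 55.2 FPKM in the gut and thymic tumours) and the nuclear receptor Nr4a3 (1.39 and 41.4 FPKM). Nfat5 sat at the threshold, with a difference of -2.04. Nr4a3 was low in the gut tumour, with 2.10% of genes lower there. None of the 8 was 4-fold higher there.

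**Figure D3:**
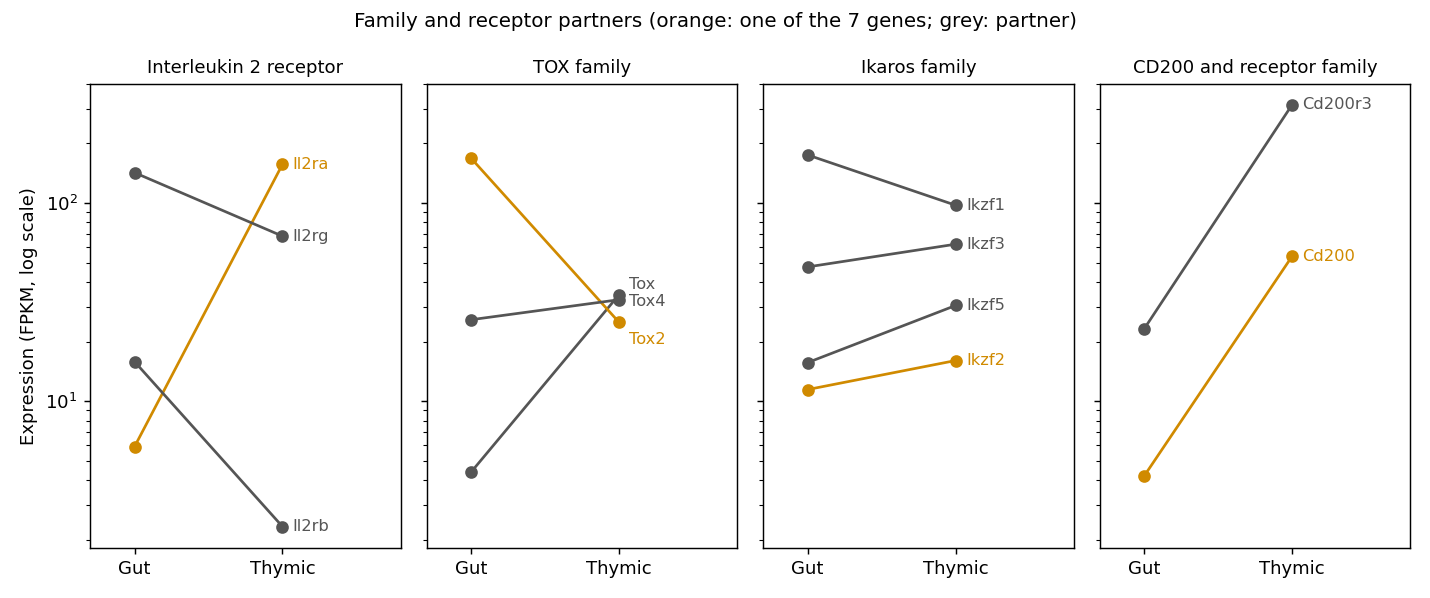
FPKM on a log axis in the gut tumour (left of each panel) and the thymic tumour (right) for 4 families, 1 library each. Those of the 7 genes that belong to them are in orange and other genes of the same families in grey. Il2ra crosses both other receptor chains, Tox2 crosses Tox, Ikzf2 stays lowest of its family, and Cd200 and Cd200r3 are both lower in the gut tumour.

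Cd200 stood at 4.20 FPKM in the gut tumour and 54.0 FPKM in the thymic tumour, a difference of -3.40. It was the lowest of the 7 in the gut tumour, above 9.02% of genes, and the third highest in the thymic tumour, above 65.1%. Cd200r3, a member of the CD200 receptor family that mouse basophils and mast cells carry, was at 23.2 FPKM in the gut tumour and 314 FPKM in the thymic tumour (-3.70). The FPKM of Cd200r3 was 5.52 times that of Cd200 in the gut tumour and 5.81 times in the thymic tumour. The gene of the main CD200 receptor, Cd200r1, was not among the genes tested, so this is not a ratio of that receptor to CD200. The adaptor Dok1, which acts below the main CD200 receptor, was at 40.4 and 6.33 FPKM in the gut and thymic tumours (2.50). Its partners Rasa1 (0.18) and Inpp5d (0.02) were not 4-fold apart, and 4 of 8 listed genes were measured.

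Pou2af1 stood at 26.0 FPKM in the gut tumour and 192 FPKM in the thymic tumour, a difference of -2.84. It was the highest of the 7 in the thymic tumour, above 89.7% of genes. Its DNA-binding partner Pou2f1, or Oct-1, was at 5.04 FPKM in the gut tumour and 5.20 FPKM in the thymic tumour, and Siah1a, a ubiquitin ligase that can turn over the Pou2af1 product, at 39.1 and 13.7 FPKM. These were the 2 measured genes of 10 listed, and neither was 4-fold apart.

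Most measured B cell genes were lower in the gut tumour, as Pou2af1 and Cd200 were. Of 15 listed B cell markers 4 were measured, with a summed level of 1808 FPKM in the gut tumour and 10822 FPKM in the thymic tumour, most of it Igkc, the constant region of the kappa light chain (1428 and 9811 FPKM). Igkc and Cd79b, a chain of the B cell receptor complex (42.9 and 242 FPKM), were 4-fold lower in the gut tumour, Ighm (214 and 716 FPKM) was lower by less, and Cd72 (122 and 53.5 FPKM) was higher. Pou2af1 stood at 60.6% of the FPKM of Cd79b in the gut tumour and 79.6% in the thymic tumour, and at 1.82% and 1.96% of that of Igkc. Cd79a and Ms4a1, which mark B cells, were listed but were not among the genes tested. MHC class II genes, with 5 of 11 measured, summed to 336 FPKM in the gut tumour and 1874 FPKM in the thymic tumour. Of the 5, 4 were 4-fold lower in the gut tumour (80.0%, against 12.0% of all genes). H2-Ob was higher there, at 49.1 and 17.8 FPKM in the gut and thymic tumours (1.42). The part of B cells in the values of Pou2af1 and Cd200 was not tested.

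Marker lists of other cells and of thymocyte stages were set beside the 7 genes in the same way. Early double-negative thymocytes had 4 of 13 listed markers measured and a median difference of -0.07. These were Notch1, Cd44, Tcf7 and Bcl11b, summed to 159 FPKM in the gut tumour and 140 FPKM in the thymic tumour. Kit and Ptcra were listed but were not among the genes tested. Of 5 measured double-positive thymocyte markers, Satb1 and Ccr9 were 4-fold higher and Cd24a 4-fold lower in the gut tumour. The measured markers of plasmacytoid dendritic cells, 3 of 11, held Tcf4 at 2.87 FPKM in the gut tumour and 105 FPKM in the thymic tumour (-4.78), Irf8 near equality (-0.13) and Ccr9 the other way (2.32). Macrophage markers, 3 of 12, summed to 277 FPKM in the gut tumour and 758 FPKM in the thymic tumour. Of the 3, Lyz2 (113 and 504 FPKM) was 4-fold lower in the gut tumour, and Cd68 (-0.53) and Itgam (-0.78) were not 4-fold apart. Erythroid markers, 5 of 12, summed to 2671 FPKM in the gut tumour and 96505 FPKM in the thymic tumour. Most of the erythroid sum was Hbb-bs (1916 and 92068 FPKM in the gut and thymic tumours). Of the 5 erythroid markers, 4 were 4-fold lower in the gut tumour and Tfrc (247 and 115 FPKM, 1.09) was higher there. The single measured markers of neutrophils (Cxcr2, -2.96) and fibroblasts (Fn1, -2.33) were 4-fold lower in the gut tumour. That of platelets (Itgb3, 2.46) was 4-fold higher. Those of plasma cells (Xbp1, -0.68), conventional dendritic cells (Ccr7, -1.57), intestinal epithelium (Epcam, 0.13) and thymic epithelium (Ccl25, 0.95) were not 4-fold apart. The part of any of these cells in the values of the 7 genes was not tested.

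The measured genes of the follicular helper list lay on both sides of 0. Of 26 listed genes 17 were measured, 5 were 4-fold higher (29.4%) and 3 were 4-fold lower (17.6%) in the gut tumour, with a median difference of 0.47. Without the 4 members, 3 of 13 were higher (23.1%) and 1 was lower (7.69%), against 7.84% and 12.0% of all genes. As deposited, the 3 higher were the costimulatory receptor Icos, at 64.0 FPKM in the gut tumour and 14.0 FPKM in the thymic tumour, the SLAM family receptor Slamf6 (205 and 31.1 FPKM) and the secreted protein Angptl2 (11.9 and 1.68 FPKM). They differed by 2.11, 2.68 and 2.27. Rescaling to equal T cell markers moved the median difference of all genes by -0.97, and none of the 3 then stays past 4-fold. Over all 9 pathway lists, that rescaling took the 4-fold higher genes from 8 to 2. The 1 gene of the 13 that was 4-fold lower as deposited was Tox, given above. Bcl6, the transcription factor that directs this fate, was at 18.6 FPKM in the gut tumour and 29.4 FPKM in the thymic tumour (-0.63) and was not 4-fold apart. Cd40lg, the ligand through which these cells help B cells, was at 24.0 and 5.78 FPKM (1.88), short of the threshold.

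Over all 9 pathway lists together, leaving out the 7 genes, 75 of 147 genes were measured, and 8 were 4-fold higher (10.7%) and 6 were 4-fold lower (8%) in the gut tumour. All genes tested gave 7.84% and 12.0%. The median difference of the 75 was 0.10, against 0.05 for all genes.

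**Figure D4:**
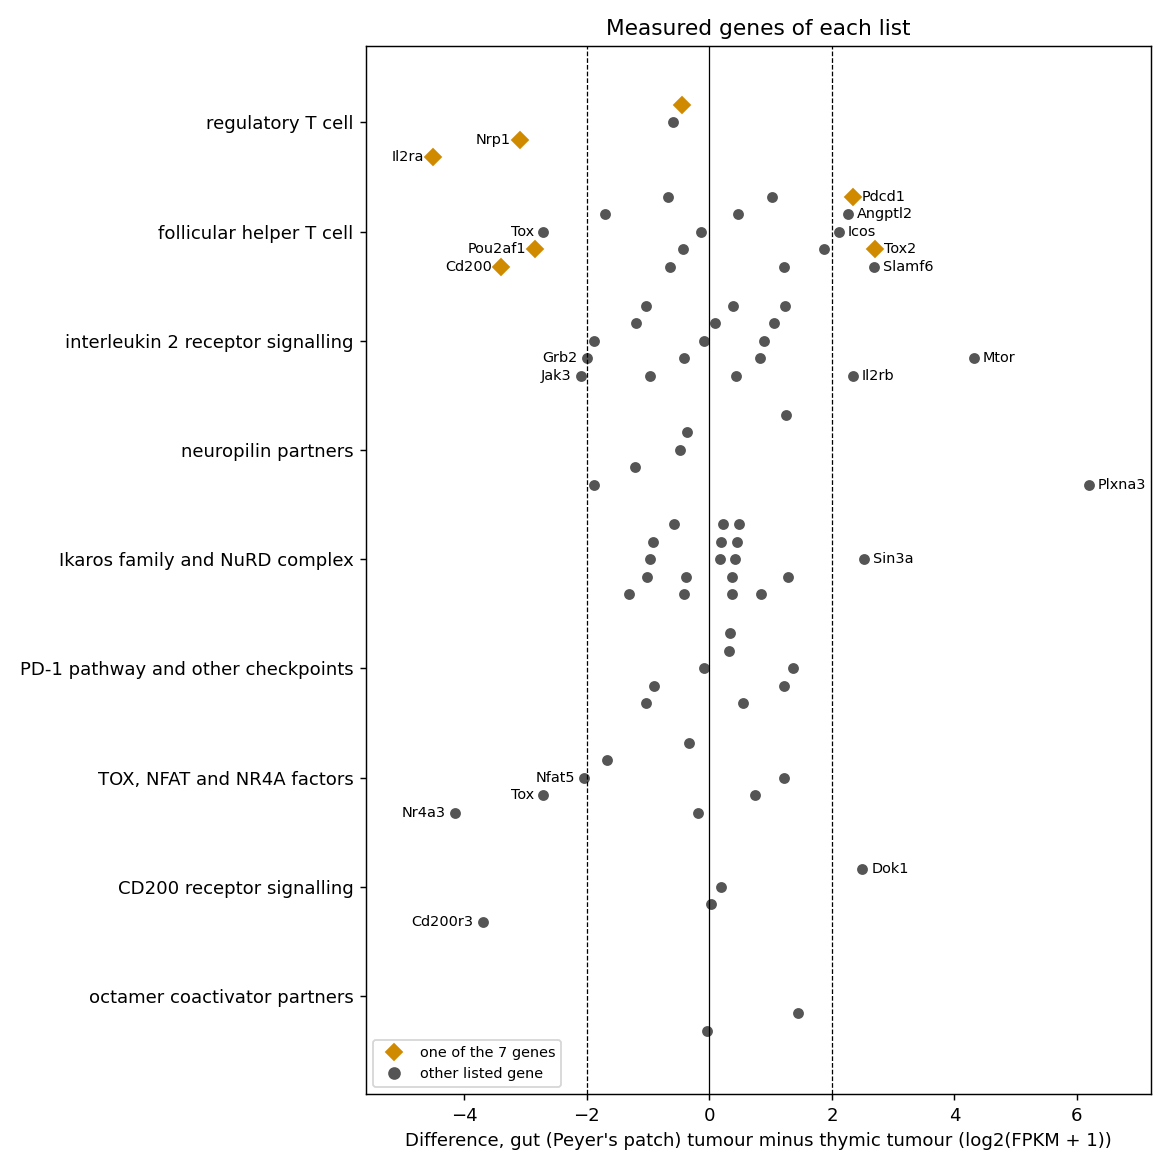
Each point is 1 measured gene of a list, placed by its difference in log2(FPKM + 1), gut tumour minus thymic tumour. Diamonds are the 7 genes, dashed lines mark 4-fold, and genes past 4-fold are named. The regulatory list has 4 points, all below 0 as deposited, of which Ikzf2 goes above 0 with the same total or the authors' standard scores, and the follicular helper list has named genes on both sides.

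Several other genes stood at nearly the same levels as each of the 7. Likeness was measured as the straight-line distance between genes over the log2(FPKM + 1) values of the 2 libraries, and with only 2 libraries many genes lie close to any other. Nearest to Il2ra were Ccdc171 (0.09), Cryzl1 and Tnfrsf22, and nearest to Nrp1 were Mms19 (0.04) and Ccdc6. Ikzf2 lay closest to Tmem251 (0.02), Gpatch1 and Traf3ip1. Pdcd1 lay closest to Zmym1 (0.03), Ndufaf5 and the interleukin 27 receptor gene Il27ra, and Tox2 to Iars (0.14), the T cell adaptor gene Lime1, and Znrf1. Cd200 was nearest to Camk2d (0.05), Klhl12 and Ddx55, and Pou2af1 to Timmdc1 (0.13), Mri1 and Hspb11.

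In order of level, the gut tumour held Tox2, Pdcd1, Pou2af1, Ikzf2, Il2ra, Nrp1 and Cd200, with 40.1-fold between the first and the last. The thymic tumour held Pou2af1, Il2ra, Cd200, Nrp1, Tox2, Ikzf2 and Pdcd1, with 34.3-fold between the first and the last. With no replicates, neighbours in these orders, such as Cd200 and Nrp1, cannot be said to differ. Summed, the 3 regulatory genes made 22.3 FPKM in the gut tumour and 223 FPKM in the thymic tumour, and the 4 follicular helper genes 231 and 277 FPKM. Relative to Trac, which encodes the constant part of the T cell receptor alpha chain (1599 FPKM in the gut tumour and 1038 FPKM in the thymic tumour), Il2ra stood at 0.369% in the gut tumour and 15.1% in the thymic tumour. Tox2 stood at 10.5% of Trac in the gut tumour and 2.42% in the thymic tumour, and Pdcd1 at 2.03% and 0.541%. Trac itself was not 4-fold apart (0.62). Trbc2 (414 and 205 FPKM in the gut and thymic tumours) and Cd3g (1017 and 341 FPKM) were higher in the gut tumour by less than 4-fold. Cd3e (172 and 561 FPKM) was lower there. Of all 15 T cell markers, 12 lay above 0 and 3 below. A share of Trac thus need not hold against another T cell gene.

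**Figure D5:**
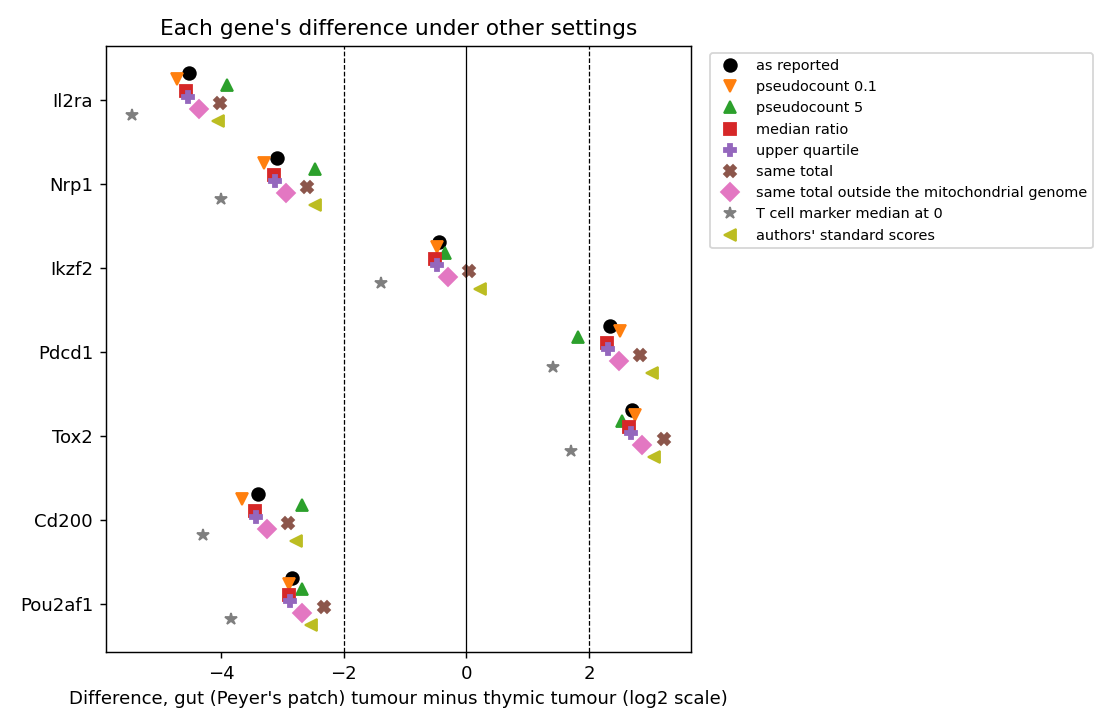
The difference of each of the 7 genes, gut tumour minus thymic tumour on the log2 scale, as reported (black) and under 8 other settings, of which the equal T cell marker median was chosen after seeing the data, with dashed lines at 4-fold. Il2ra, Nrp1, Cd200 and Pou2af1 stay past 4-fold lower in all 8, Pdcd1 is inside 4-fold in 2 and Tox2 in 1, and Ikzf2 crosses 0 in 2.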

How the data were processed

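RNA sequencing values of 2 tumours, 1 library each, were used. Per the labels' protocols, RNA came from lysed tumour tissue and was made into stranded poly(A) libraries. Per the submitters' processing notes, the tools were GATK, Picard, Cufflinks and TopHat and the build was mouse mm9, whereas versions and annotation were not given in the sources used here. The authors deposited, per the file headers, an FPKM and a standard score per library. The deposited FPKM columns were read as log2(FPKM + 1), and both the base and the added 1 were inferred from the values (largest 20.65, smallest 2.24e-15), so each FPKM printed rests on that reading. The authors' score is a straight line of the log2 value in each library (largest residual 1.2e-08).

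Cufflinks values hold no whole counts, so depth is unknown and no counting interval can be given. All measured genes were above 0 in both libraries, and a gene at 0 in either could not be compared. A gene had to reach 1 FPKM in either library, and 4 did not. A single library per group allows neither a test nor a p-value. GENCODE M21, of another build, lists 1 to 11 transcripts for the 7 genes, 11 for Cd200 and 9 for Ikzf2, and how Cufflinks divides fragments among them affects an FPKM. It lists no other protein-coding gene over any of the 7. Promoter sequences had entries for 6 of the 7 genes.

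The 7 genes, the 9 pathway lists and the 16 marker lists were chosen with earlier results of these data known. Named were the 7, measured members of the pathway lists (first those 4-fold apart), markers by their totals and up to 4 members each, and the 3 nearest genes of each of the 7, of which 1 is not reported here. Alternatives were pseudocounts of 0.1 and 5, thresholds of 2-fold and 8-fold, other filters, 4 rescalings, the authors' scores multiplied by the mean SD of both libraries, and, chosen after seeing the data, rescaling to equal T cell markers. Python 3.11.15, pandas 2.3.3, numpy 2.4.6 and matplotlib 3.10.9 were used.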

Additional observations from a re-analysis of the deposited data

How the results depend on the processing

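Il2ra, Nrp1, Cd200 and Pou2af1 kept their direction and stayed past 4-fold in all 8 alternatives run for single genes, with ranges of -5.44 to -3.89, -4.00 to -2.46, -4.30 to -2.68 and -3.83 to -2.31. Pdcd1 ranged from 1.41 to 3.03 and Tox2 from 1.71 to 3.23, and Ikzf2 was 0.051 with the same total and 0.23 with the authors' scores. Rescaling to the same total, to the same total outside the mitochondrial genome and to equal T cell markers moved the median difference of all genes by 0.52, 0.16 and -0.97, and the authors' scores by 0.43. The counts that follow are of genes past the threshold, and give those higher and then those lower in the gut tumour. Of the 7 genes, 2 and 4 as reported, the counts became 1 and 4 with a pseudocount of 5, 0 and 4 with equal T cell markers, and 0 and 3 at 8-fold, which Pou2af1 did not reach. The pathway genes, 8 and 6 as reported, became 5 and 3 with a pseudocount of 5, 2 and 15 with equal T cell markers, 18 and 16 at 2-fold, and 2 and 2 at 8-fold. Lower pathway genes were 3 with the same total, with the same total outside the mitochondrial genome and with the authors' scores. All genes, 646 and 991 as reported, became 416 and 651 with a pseudocount of 5, 1197 and 641 with the same total, 180 and 2030 with equal T cell markers, 2036 and 2103 at 2-fold, 165 and 418 at 8-fold, and 1218 and 624 with the authors' scores. A threshold or a scaling moves such counts by construction, and other causes were not tested. Unknown depth limits the low values most, among them Cd200, Nrp1 and Nr4a3 in the gut tumour and Pdcd1, Il2rb and Plxna3 in the thymic tumour. No paired analysis was possible because each group has 1 library, and none could be left out.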
